A study of Mus musculus with 12 samples.

Results

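The Ly49 receptor genes were represented by 9 probes of 3 gene names, Klra17 (2 probes), Klra22 (5 probes) and Klra2 (2 probes), out of 19948 gene names and 40726 autosomal probes on mouse arrays for comparative genomic hybridisation. They were taken by gene name alone, as every probe whose name in the array files starts with Klra. Each array compared DNA of cultured malignant peripheral nerve sheath tumour cells, labelled with Cy5, with DNA of non-neoplastic Schwann cells, labelled with Cy3, on 12 arrays of 11 tumours and with no dye swap. All tumours came from P0-GGFβ3 mice, in which a promoter active in Schwann cells drives the neuregulin isoform GGFβ3. The 7 tumours labelled C57BL/6J x SJL/J, called mixed here, were A18 (passage 11), 231 Trig (no passage given), A202 (passage 6), A390 (passage 7), A292 (passage 8), A382 (passages 8 and 9, averaged and counted once) and A394 (passage 5). The 4 tumours labelled C57BL/6J were B86 (passage 6), B91 (passage 9), B96 (passage 8) and B76 (passage 13). Several of these passages lie above the limit that the growth notes give. The reference cells were labelled wild-type and C57BL/6J on every array, and were kept in forskolin and neuregulin throughout, while the tumour cultures received them only at the start. The labels do not say whether a tumour culture is clonal or whether 1 or several reference cultures were used. The labelled cell types could not be checked by marker expression, since DNA was measured. P-values measure only the spread between these cultures.

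Ly49 proteins are C-type lectin-like receptors, known mainly from natural killer cells, that bind MHC class I molecules on other cells. Inhibitory members carry a tyrosine motif that recruits the phosphatase encoded by Ptpn6, whereas activating members pair with the adaptor encoded by Tyrobp. The genes stand side by side on mouse chromosome 6 within the natural killer gene complex, and their number and kind differ between inbred strains. Klra17 encodes Ly49Q, which is known from plasmacytoid dendritic and myeloid cells, and Klra2 encodes Ly49B, which stands apart from the main cluster.

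All coordinates are those of build mm9 as the files give them. The 9 probes spanned 1412.5 kb, from chr6:129783711-129783770 in Klra17 to chr6:131196197-131196256 in Klra2, and only 1 other probe lay between them. The largest gap, of 849.6 kb, separated the last Klra22 probe from the first Klra2 probe, against a median spacing of 26.0 kb between chromosome 6 probes. The name Klra22 covered 307.9 kb, and its 5 probes carried different sets of cDNA accessions, so it does not stand for 1 gene. Of the 7 accessions on the Ly49 probes, 3 matched the RefSeq gene table, which lists 16 Klra symbols, 14 of them on chromosome 6 from Klra17 to Klra2. The matched accession of probe P108063 belongs to Klra1, the gene of the inhibitory receptor Ly49A, for which the table gives Klra22 as a synonym. Which Ly49 gene holds each of the other 4 Klra22 probes is therefore uncertain, and no exon or intron is assigned to any probe.

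The sequences of 4 Klra22 probes are shown because the results turn on P174017, P112911 and P108063, while P123852 lies between the last 2 and behaved differently. They are printed in the order along the chromosome and as the deposited files give them, all in lower case, with the strand not given in the sources used here.
P174017, chr6:130146698-130146757: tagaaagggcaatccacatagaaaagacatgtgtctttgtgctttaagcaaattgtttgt
P112911, chr6:130239036-130239095: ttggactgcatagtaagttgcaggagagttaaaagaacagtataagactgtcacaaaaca
P123852, chr6:130261207-130261266: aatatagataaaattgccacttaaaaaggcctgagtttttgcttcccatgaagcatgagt
P108063, chr6:130328573-130328632: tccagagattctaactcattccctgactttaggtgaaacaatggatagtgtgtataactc
The files list 1 perfect genome match for each of the 9 probes. The longest run of bases that any Ly49 probe shared with another was 10, and 0 other probes on the array shared 20 bases with one. Their GC content lay between 31.67% and 38.98%.

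The measurement is the log2 ratio of tumour over reference signal, centred on the median of the array's autosomal probes. From each Ly49 probe the median of 20 flanking probes, the 10 nearest on each side of the Ly49 probes, was then taken off, so that a gain or loss of the whole region does not count. These flanks include genes of the natural killer complex itself, among them Klrk1, Klrc1, Klrc3, Klri2, Magohb and Styk1. The flank level was above 0 in all 11 tumours, at 0.01 in A202, 0.05 in A394, 0.06 in B96, 0.11 in A292 and in A382, and 0.13 in A390 and in 231 Trig. It was higher in A18 at 0.26, B86 at 0.28 and B76 at 0.32, and highest in B91 at 0.77. Of the 108 Ly49 spots, 1 was marked as an outlier and left out (Klra2 probe P148917 in A202), and 1 had reference signal not well above background (Klra22 probe P174017 in 231 Trig). The median error that the scanner software gave for a Ly49 spot was 0.22 on the log2 scale. Slide 1, with A18, 231 Trig, B86 and A202, was read on another scanner than slides 2 and 3.

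The first comparison asks whether tumour DNA differed from Schwann cell DNA at the Ly49 genes beyond the level of their surroundings. Of the 9 probes, 6 were higher in the tumours, 1 was lower and 2 were not called by limma with an adjusted p under 0.05 and an absolute mean log2 ratio of 0.2 or more. Over all 40726 autosomal probes, 13.7% were called higher and 15.2% lower, 28.9% in either direction. With centring on the mode and no flank subtraction, the 5572 probes called higher and 6197 called lower became 9415 and 5690. The median of the 9 probe means was 0.25, against -0.0014 for all probes. The probe means ran from -0.23 to 1.77, and probes with the same gene name did not share a value. A ratio against 0 leaves out any spread between reference cultures. Effects of the dye and of the tumour cannot be told apart.

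**Figure D1:**
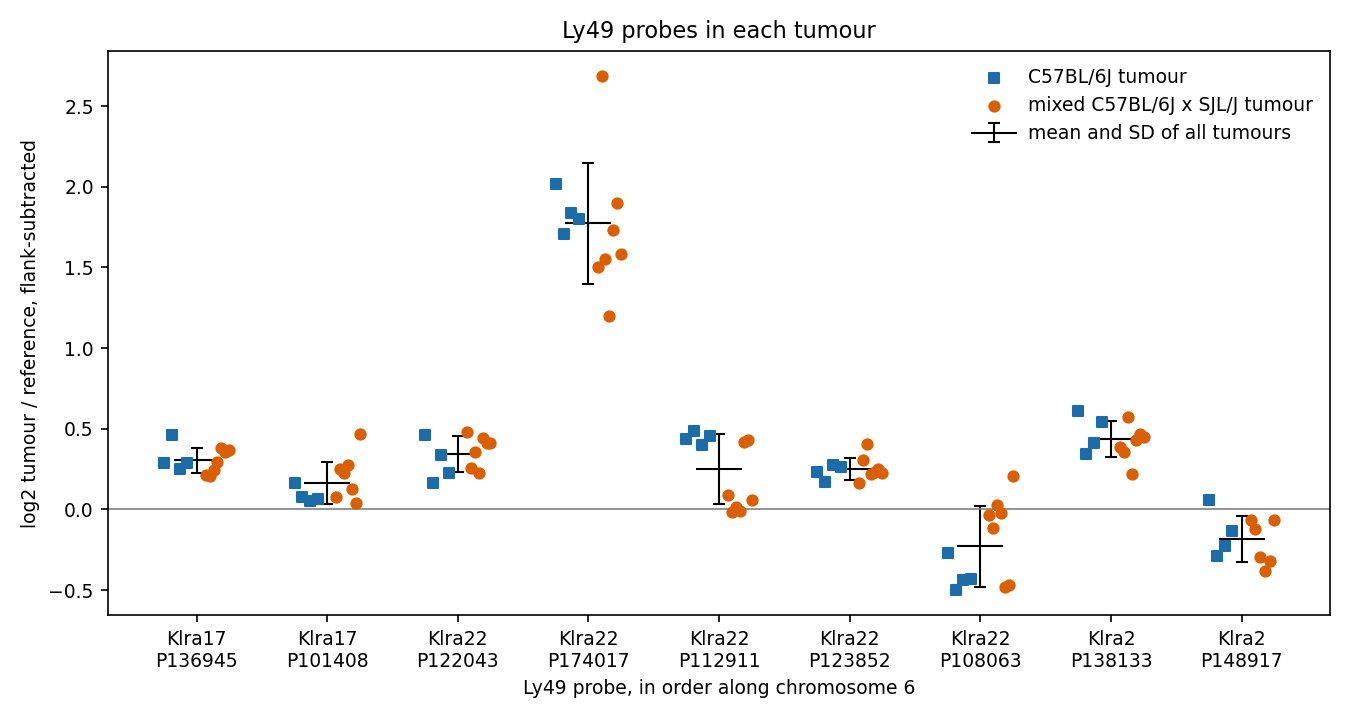
Flank-subtracted log2 ratio of tumour over reference (vertical axis) at the 9 Ly49 probes in their order along chromosome 6 (horizontal axis), with 1 point per tumour, squares for C57BL/6J and circles for mixed tumours, and the mean with SD over all tumours in black. Probe P174017 lies between 1.20 and 2.68 in all 11 tumours, while the other 8 probes lie between -0.50 and 0.61, and P112911 and P108063 each show separate groups of points within the mixed tumours.

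The highest value was that of Klra22 probe P174017, which stood above 1 in every tumour. Its ratio was 2.02 in B86, 1.71 in B91, 1.84 in B96 and 1.80 in B76, and in the mixed tumours the lowest, median and highest were 1.20 in A390, 1.58 in A394 and 2.68 in 231 Trig. Of the mixed tumours, A18, A202, A390 and A394 lay below the C57BL/6J range and A292 and A382 inside it. Only 231 Trig, whose reference spot was not well above background, lay above it. The mean over the 11 tumours was 1.77 ± 0.37 (SD, n = 11), or 3.42-fold, with an SE of 0.10 and a limma adjusted p of 6.33e-09. It ranked 12th from the highest of all 40726 autosomal means. Without the spot that was not well above background, the mean was 1.68, and the difference between mixed and C57BL/6J tumours was -0.26 in place of -0.10, not called in either case.

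The separate channels show where the P174017 ratio lay. Reference intensity at this spot was 291.8 to 391 on 11 of the 12 arrays, and tumour intensity was 870 to 2019. On the array of 231 Trig both channels were far lower, at 14.1 for the reference and 100 for the tumour. The median net reference signal of the other 11 arrays was 618 to 809. It is another measure than the dye-normalised intensity of the spot, so these ranges cannot be compared directly. After flank subtraction the reference channel varied little on the arrays of the C57BL/6J tumours, at -1.14 ± 0.02 (SD, n = 4). On the arrays of the mixed tumours it was -1.02 in A18, -1.08 in A292, -1.17 in A390 and -1.18 in A382. It was lower in A394 at -1.41, A202 at -1.45 and 231 Trig at -5.85. The tumour channel was 0.85 in B86, 0.62 in B91, 0.56 in B96 and 0.65 in B76. Of the mixed tumours A292, at 0.62, and A382, at 0.60, lay inside that range, whereas A18 at 0.39, A202 at 0.08, A394 at 0.03, A390 at 0.01 and 231 Trig at -3.05 lay below it. The mean tumour channel of the mixed tumours was 0.86 below that of the C57BL/6J tumours (-0.86, SE 0.60), which limma did not call (adjusted p = 0.976). In the reference channel the difference was -0.74 (SE 0.82, limma adjusted p = 0.9895), also not called. Without 231 Trig the difference was -0.38 in the tumour channel and -0.08 in the reference channel.

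**Figure D2:**
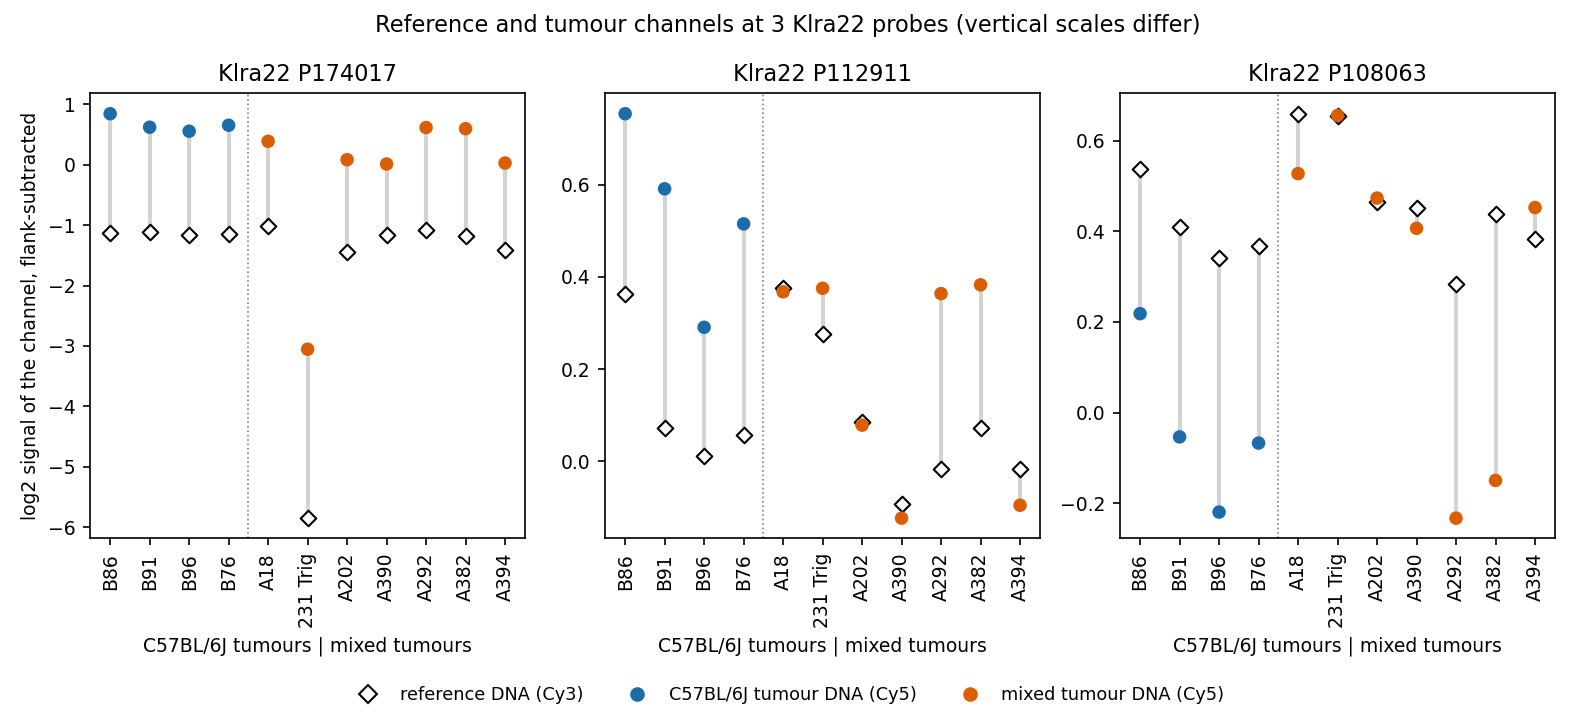
Flank-subtracted log2 signal (vertical axis, a different scale in each panel) of the reference DNA (open diamonds) and the tumour DNA (filled circles, blue for C57BL/6J and orange for mixed tumours) at 3 Klra22 probes in each tumour. At P174017 the tumour signal exceeds the reference signal in all 11 tumours, while at P112911 and P108063 the channels lie clearly apart in the 4 C57BL/6J tumours, A292 and A382, and close together in A18, 231 Trig, A202, A390 and A394.

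The other 4 Klra22 probes were closer to their surroundings. P122043, the first along the chromosome (chr6:130020705-130020763), was higher in the tumours with a mean of 0.34 ± 0.11 (SD, n = 11; limma adjusted p = 7.04e-07). It was above 0 in all 11 tumours, from 0.16 in B91 to 0.48 in A18, and the strain backgrounds overlapped. P123852 was likewise above 0 in all 11, from 0.16 in A18 to 0.41 in A202, with a mean of 0.25 ± 0.07 (SD, n = 11; limma adjusted p = 7.32e-07). With 20 flanking probes on each side its mean was 0.17, under the size needed for a call. P112911 was called higher with a mean of 0.25 ± 0.22 (SD, n = 11; limma adjusted p = 0.00167). P108063 was the only Ly49 probe called lower, with a mean of -0.23 ± 0.25 (SD, n = 11; limma adjusted p = 0.00775), and it lost the call without flank subtraction (-0.03) and with centring on the mode (0.0004).

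Both Klra17 probes had ratios above 0 in every tumour. P136945 was called higher, with 0.29 in B86, 0.46 in B91, 0.25 in B96 and 0.29 in B76, and a lowest, median and highest of 0.20 in 231 Trig, 0.29 in A390 and 0.38 in A292 among the mixed tumours. B91, whose flanks were also the highest, stood above all other tumours at this probe. Its mean was 0.30 ± 0.08 (SD, n = 11; limma adjusted p = 2.68e-07). P101408 (chr6:129815717-129815776), the other Klra17 probe, had a mean of 0.16 ± 0.13 (SD, n = 11; limma adjusted p = 0.00149), under the size needed for a call. Its values ran from 0.04 in A382 to 0.47 in A394, and 5 of the alternative settings, among them 5 flanking probes on each side (0.23), brought it past that size.

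The Klra2 probes, 849.6 kb beyond Klra22, differed from each other in sign after flank subtraction. P138133 (chr6:131178278-131178337) was called higher, with 0.61 in B86, 0.34 in B91, 0.41 in B96 and 0.54 in B76, and from 0.22 in A390 to 0.57 in A202 in the mixed tumours. The mean was 0.43 ± 0.11 (SD, n = 11; limma adjusted p = 1.03e-07), the highest after P174017. P148917, 17.9 kb away, had a mean of -0.18 ± 0.14 (SD, n = 10, without A202; limma adjusted p = 0.00156) and was not called. It was below 0 in 9 of 10 tumours, with B86 at 0.06 as the exception. Without B86 its mean was -0.21 and without slide 1 -0.24, and in both settings it was called lower. Without flank subtraction it was 0.04 and with centring on the mode 0.07, on the same side of 0 as P138133.

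**Figure D3:**
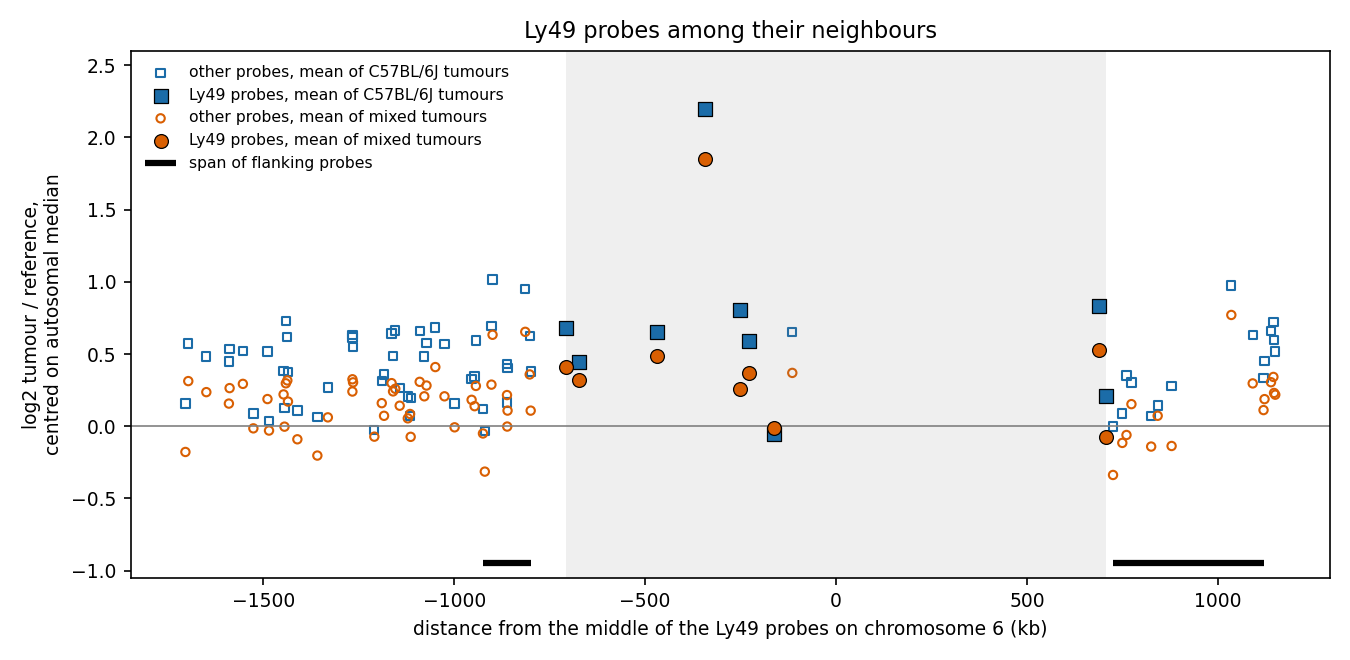
Mean log2 ratio centred on the autosomal median, with no flank subtraction (vertical axis), of probes around the Ly49 genes by their distance from the middle of the Ly49 probes (horizontal axis, kb), squares for the C57BL/6J and circles for the mixed tumours, filled for Ly49 probes, with the Ly49 span shaded and the span of flanking probes as black bars. P174017 stands above every neighbour in both groups, and the C57BL/6J tumours lie higher than the mixed tumours along most of the region, where B91 had a flank level of 0.77.

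The second comparison asks whether the Ly49 ratios differed between mixed and C57BL/6J tumours. None of the 9 probes was called by limma (0 at an adjusted p under 0.05, 2 at an unadjusted p under 0.05), against 50 of 40726 autosomal probes, or 0.123%, called in either direction (0.081% higher and 0.0417% lower in mixed tumours) and 2948 at an unadjusted p under 0.05. The mixed and C57BL/6J values overlapped at all 9, while they did not overlap at 650 of 39149 probes with values in all tumours (1.66%). The 2 probes with an unadjusted p under 0.05 were Klra22 probes P112911 (0.00564) and P108063 (0.0326), and their values within the mixed tumours were uneven.

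At P112911 the C57BL/6J tumours lay close together, at 0.44 in B86, 0.48 in B91, 0.40 in B96 and 0.46 in B76. Among the mixed tumours A292 had 0.42 and A382 0.43, inside that range, and the other 5 were near 0, with 0.09 in A18, 0.06 in A394, 0.02 in A202, -0.01 in A390 and -0.01 in 231 Trig. No tumour had a value between 0.09 and 0.40. The mean difference, mixed minus C57BL/6J, was -0.30 (SE 0.09, limma adjusted p = 0.310), from 0.14 ± 0.20 (SD, n = 7) and 0.44 ± 0.04 (SD, n = 4). Within the slides the difference was -0.41 on slide 1, -0.21 on slide 2 and -0.18 on slide 3. In these differences, and in those of P108063 below, slides 1 and 2 had 1 C57BL/6J array each. A382 entered both slide 2 and slide 3. With the mixed tumours alone the mean ratio against the reference was 0.14, and with 20 flanking probes on each side it was 0.17, and in both settings the call was lost.

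P108063, 89.5 kb further along, showed the opposite sign with the same tumours. It had -0.27 in B86, -0.50 in B91, -0.44 in B96 and -0.43 in B76, and A292 at -0.48 and A382 at -0.47 lay inside that range. The other 5 mixed tumours lay above it, with -0.11 in 231 Trig, -0.03 in A18, -0.02 in A390, 0.03 in A202 and 0.21 in A394. The mean difference was 0.28 (SE 0.12, limma adjusted p = 0.602), from -0.13 ± 0.26 (SD, n = 7) and -0.41 ± 0.10 (SD, n = 4), and within slides 1, 2 and 3 it was 0.23, 0.17 and 0.31. Without flank subtraction the mean difference was 0.04 and the division was not kept. B91 at 0.27 then lay above the other 5 mixed tumours, which ran from 0.02 in 231 Trig to 0.26 in A394. B86 at 0.01 lay beside 231 Trig, while B96, B76, A292 and A382 lay lower, from -0.38 in B96 to -0.11 in B76. P123852 stands between these probes and did not show the split: its mixed tumours averaged 0.26 ± 0.08 (SD, n = 7) and its C57BL/6J tumours 0.23 ± 0.05 (SD, n = 4), a difference of 0.02 (SE 0.05).

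Both passages of A382 gave the same picture. P112911 was 0.43 at passage 8 and 0.43 at passage 9, and P108063 was -0.48 and -0.46. Over the 9 Ly49 probes the 2 arrays, on different slides, differed by -0.11 to 0.15.

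The channels were then compared apart, since the reference was labelled C57BL/6J on every array. In the reference channel 0 of 9 Ly49 probes were called between arrays of mixed and of C57BL/6J tumours, and 0 of all 40726, by limma, with 0 and 247 at an unadjusted p under 0.05. In the tumour channel 0 of 9 were called, with 1 at an unadjusted p under 0.05, against 2 of 40726 (0.00491%) and 1605. At P112911 the mean difference was -0.35 (SE 0.13) in the tumour channel and -0.03 (SE 0.10) in the reference channel. At P108063 it was 0.34 (SE 0.18) in the tumour channel and 0.06 (SE 0.08) in the reference channel. The reference signal of P112911 was itself higher on the slide 1 arrays of A18 (0.38), B86 (0.36) and 231 Trig (0.28) than on those of slides 2 and 3, where it ran from -0.09 to 0.07, but on the slide 1 array of A202 it was 0.08, and the part of this in the channel differences was not tested.

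**Figure D4:**
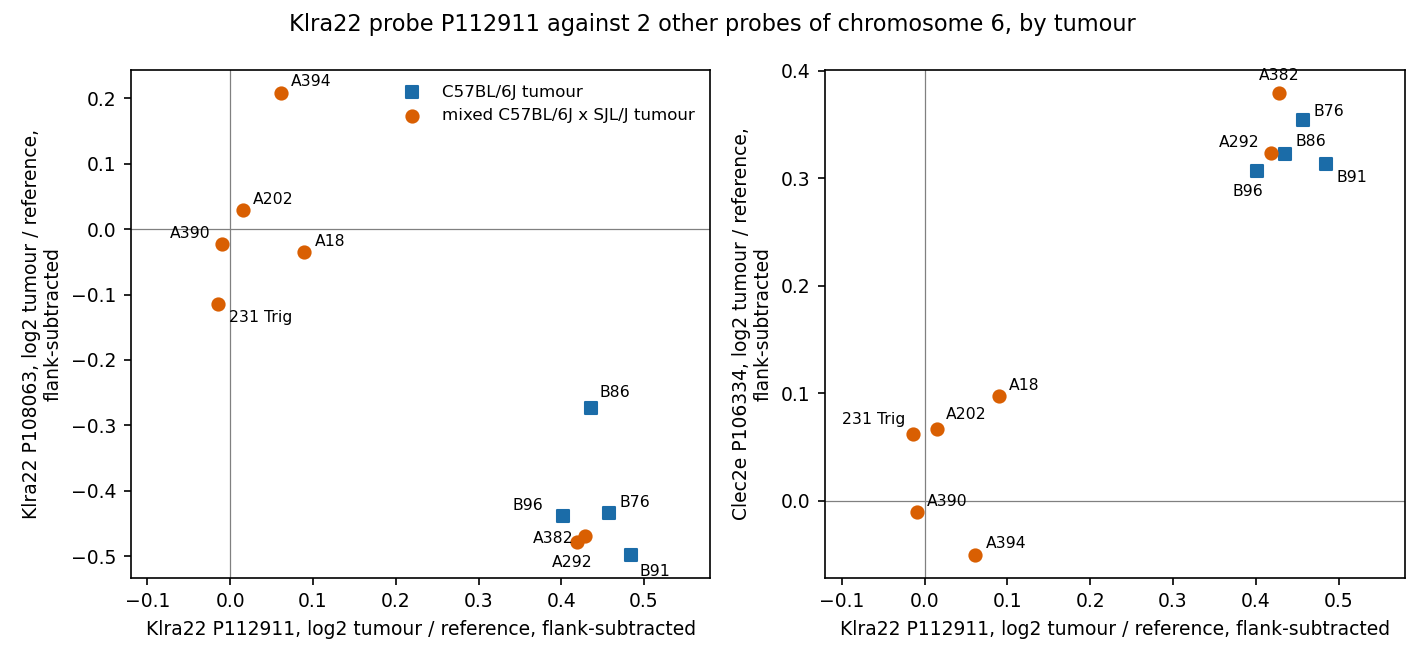
Flank-subtracted log2 ratio of tumour over reference at Klra22 probe P112911 (horizontal axis) against Klra22 probe P108063 (left, vertical axis) and Clec2e probe P106334 (right, vertical axis), with 1 labelled point per tumour, squares for C57BL/6J and circles for mixed tumours. In both panels A292 and A382 lie among the 4 C57BL/6J tumours, and A18, 231 Trig, A202, A390 and A394 form the other set of points.

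Other probes, on chromosome 6 and on other chromosomes, followed P112911 or P108063 over the tumours, and some of them showed the same division. They were picked after their values were seen. Each had a Pearson r of at least 0.9 in absolute size with P112911 or P108063 over the 11 tumours. Among 22534 probes compared, each with an SD over the tumours of at least 0.1, 22 passed with P112911 and 7 passed with P108063. P112911 and P108063 had an r of -0.898 with each other, short of that limit. Chromosome 6 held 7 of the 22 (31.82%) and 4 of the 7 (57.14%), and 5.88% of the probes compared. The rest lay on other chromosomes. On chromosome 8, Cul4a probe P101831 ran from -0.53 to -0.34 in the C57BL/6J tumours, A292 and A382. It ran from -0.06 to 0.15 in the other mixed tumours. The highest r with P108063, 0.968, was that of an unnamed chromosome 19 probe. Passing this limit did not require the full division. At Srgap3 probe P116870 (r = 0.927 with P108063) B86 at -0.2297 lay above A18 at -0.2442 and 231 Trig at -0.2717. At Irx4 probe P128063 (r = 0.909 with P108063) 231 Trig at -0.0434 lay below B86 at -0.0291. Since the tumours fall into separate sets at P112911 and P108063, r mainly describes this division. The arrays are shared by all probes, and no test was made.

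The nearest of these probes was P106334 in Clec2e (chr6:129049315-129049374), a C-type lectin-like gene of the natural killer complex. It was 0.32 in B86, 0.31 in B91, 0.31 in B96 and 0.35 in B76, with A292 at 0.32 and A382 at 0.38 beside them. The other 5 mixed tumours ran from -0.05 in A394 to 0.10 in A18, with no overlap. Without flank subtraction A18 at 0.4515 lay above B96 at 0.4391, so the sets then overlapped. Of both other Clec2e probes, P153695, 3.6 kb away, had -0.49 in B91, -0.33 in B76, -0.32 in A382, -0.28 in A292 and -0.2193 in B96, against -0.215 in A390 to 0.0005 in 231 Trig for the other 5 mixed tumours, and B86 at -0.0851 lay among the latter. P137354, 6.0 kb away, lay between -0.10 and 0.20. Plekhg6 probe P145598 (chr6:125326794-125326853) was lower in the same tumours, from -0.87 in B91 to -0.57 in B86 in the C57BL/6J tumours, with A292 at -0.79 and A382 at -0.81, and from -0.39 to -0.30 in the other 5. Tgfa probe P107088 (chr6:86187387-86187446), in the gene of the growth factor TGF-alpha, ran from 0.72 in B86 to 0.90 in B96, with 0.87 in A292 and 0.82 in A382, against 0.53 to 0.61 in the other 5.

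The other genes of the natural killer complex were described from a list of 35, of which 27 had probes, 47 in all. Of these probes 7 were called higher, 9 lower and 31 not called, beside 13.7% higher and 15.2% lower over all probes, with a median mean ratio of 0.01 and a range from -0.55 to 0.44. Klrc3, which encodes an NKG2 family receptor that pairs with CD94, was called higher in the tumours with a mean of 0.44 ± 0.09 (SD, n = 11). Klrk1, the gene of the activating receptor NKG2D, was called lower at both of its probes, with means of -0.32 ± 0.15 and -0.55 ± 0.16 (SD, n = 11 each). Clec2d, which encodes a ligand of an NKR-P1 receptor, was called lower at -0.38 ± 0.11 (SD, n = 11). Without flank subtraction the Klrk1 probe P152244 averaged 0.12 in the C57BL/6J and -0.05 in the mixed tumours, the Klrk1 probe P168945 -0.04 and -0.31, and Clec2d 0.07 and -0.20. The Klrk1 and Klrc3 probes are among the flanks of the Ly49 genes. Between the strain backgrounds, 0 of the 47 probes were called.

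For the signalling partners of Ly49 receptors, 8 of 12 listed genes had probes, 16 in all, while the MHC class I genes H2-K1, H2-D1 and H2-L and the light chain gene B2m were not analysed here. Of these probes 2 were called higher and 14 were not called, beside 13.7% called higher over all probes, with a median mean ratio of 0.05. The 2 were those of Syk, a tyrosine kinase downstream of Tyrobp, at 0.29 ± 0.10 (SD, n = 11), and 1 of the Fyb adaptor gene's probes at 0.22 ± 0.17 (SD, n = 11). The Tyrobp probe had a mean of 0.05 ± 0.08 (SD, n = 11), and the 3 Ptpn6 probes had means of -0.11, 0.02 and 0.08, and none of these was called. Between the strain backgrounds, 0 of the 16 probes were called.

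P174017 was 1 of 12 probes at or above 1 in every tumour, or 0.0307% of 39149, and had the 7th highest mean of them. Each channel, adjusted for GC content, was also ranked among the autosomal probes of its array. The median percentile of the reference signal was under 10 for 10 of the 12. For P174017 it was 4.58 in the reference and 65.79 in the tumour channel. Of the 12, 8 lay on chromosome 11. The other chromosome 6 probe among them (chr6:136174353-136174412), which the files give no gene name, had a mean of 1.86.

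Genes elsewhere whose ratios followed those of the Ly49 genes most closely were ranked by Pearson r over the 11 tumours among 622 genes with an SD of at least 0.3 and more than 5 Mb away. For Klra17, as the mean of its probes, the highest r was 0.575 with an unnamed probe (chr2:15107486-15107545), followed by Pip at 0.559 and Lpar2 at 0.558. For Klra22 the closest named gene was Dusp23 at 0.737, after unnamed probes at 0.779 (chr9:69346194-69346253) and 0.775 (chr10:21876152-21876211). For Klra2 they were 0610010K14Rik at 0.862 and Krt5 at 0.849, with the value of Klra2 in A202 resting on 1 probe. All of these rest on the same 11 tumours and arrays, and the Klra22 mean is weighted by P174017, whose values spread over the widest range.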

How the data were processed

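The deposited values are log10 ratios of tumour over reference signal and the intensity of each channel, which the authors' scanner software had background-subtracted and dye-normalised within each array, per the file headers. Agilent Feature Extraction 9.5 and build mm9 are given by the submitters' processing notes. The value table of the series was identical to the scanner files' log10 ratios (largest absolute difference 0). Control spots and outlier spots were left out, spots of 1 probe were averaged to 42404 probes, and ratios were converted to log2, centred and flank-subtracted as described above. Channels were treated in the same way. All 40726 autosomal probes were fitted with limma 3.58.1 in R 4.3.3 with Benjamini-Hochberg adjustment, and the fits were tested on simulated data. Tables were made with Python 3.11.15, numpy 2.4.6, pandas 2.3.3 and statsmodels 0.14.6, and figures with matplotlib 3.10.9. The alternatives varied flanks, centring, background correction (normexp with an offset of 50), dim and marked spots, GC content, slide, passage and tumours. The named genes were every Klra probe, up to 4 genes of each list and the 5 genes most alike. Outside this rule, Clec2e, Cul4a, Plekhg6, Tgfa, Srgap3 and Irx4 were named from the probes picked by r with P112911 or P108063, after their values were seen. The members, lists and rules were chosen with earlier results of these data known, so they are no independent support. At least 99.43% of probes per array were well above background, and the number of arrays limits the precision.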

Additional observations from a re-analysis of the deposited data

Results flagged for a closer look

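In 54 sets of values (9 probes, by ratio, reference channel and tumour channel, within each strain background), 10 had 1 tumour standing far from the others by Dixon's test, which flags about 1 in 20 by chance. Of the 10 values so marked, 9 were from slide 1.

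At Klra22 probe P174017, 231 Trig stood apart in both channels among the mixed tumours, with a reference channel of -5.85 (-5.8509) against -1.45 (-1.4478) for the nearest and a tumour channel of -3.05 (-3.0532) against 0.01 (0.0134). At Klra22 probe P123852, A18 had a reference channel of -0.82 (-0.8161) against -0.33 (-0.3322) and a tumour channel of -0.75 (-0.7502) against -0.14 (-0.1386). At Klra22 probe P122043, A202 had a reference channel of 0.86 (0.8558) against 1.08 (1.0838) and a tumour channel of 1.19 (1.1927) against 1.38 (1.3812). At these 3 probes both channels of the same spot were low, and the ratio of that tumour was not marked.

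Among the C57BL/6J tumours, B86 stood apart in the reference channel at 3 probes. It had -0.43 (-0.4263) against -0.63 (-0.6308) at Klra17 probe P136945, 0.74 (0.7442) against 0.52 (0.5157) at Klra17 probe P101408, and -0.37 (-0.3724) against -0.61 (-0.6087) at Klra2 probe P138133. B86 was the only C57BL/6J tumour on slide 1. The only ratio so marked was that of B91 at Klra17 probe P136945, with 0.46 (0.4583) against 0.29 (0.2857), and B91 also had the highest flank level. The part of slide and flank level in these values was not tested.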

How the results depend on the processing

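The main count of 7 called Ly49 probes was 6 with 20 flanking probes a side and 8 with normexp, without slide 1 and without B86, and it was 7 in the other alternatives, leaving out each tumour included. The count pools directions, and the probes behind it changed. With 20 flanking probes a side P112911 (0.17) and P123852 (0.17) lost the call and P148917 (-0.27) was called lower. P101408 was called higher in place of P108063 with 5 flanking probes a side (0.23) and without flank subtraction (0.37). In the mixed tumours alone P101408 (0.21) and P148917 (-0.21) took the place of P112911 (0.14) and P108063. The counts of 0 called between strain backgrounds, for the ratio and for each channel, were 0 in every alternative run. P174017 stayed called in all 26 alternatives, from 1.68 to 2.00. P108063 changed sign with centring on the mode and no flank subtraction (0.0004) and lost its call with 5 flanking probes a side (-0.17), without flank subtraction (-0.03) and in the mixed tumours alone (-0.13). P148917, not called in the main fit, was 0.04 without flank subtraction and 0.07 with centring on the mode in place of -0.18. Over all autosomal probes, the 50 called between strain backgrounds were 2 without B96, 9 without B91, 11 without B76, 18 without B86, 21 without A18, 80 without A202, 78 without A292, 136 without slide 1, 120 with normexp, 17 without flank subtraction, 7 with centring on the mode and 78 with slide as a block. Without slide 1 the tumour channel had 113 calls over all probes in place of 2. The cause was not tested. The GC adjustment of ratios was added after the data were seen. No paired analysis was possible because the labels give no replicate numbers shared between the groups. Slide, which holds tumours of both backgrounds, was used as a block instead, with the counts given above.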
